A study of Mus musculus with 92 samples.

Results

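The 10 genes described here encode zinc-dependent histone deacetylases of the mouse: Hdac1, Hdac2, Hdac3 and Hdac8 of class I, Hdac4, Hdac5 and Hdac7 of class IIa, Hdac6 and Hdac10 of class IIb, and Hdac11, the only member of class IV. They were taken by gene symbol from the deposited count tables, where they are 10 of 54532 genes. Hdac9, the remaining class IIa gene, was not on the list and is not analysed here.

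Histone deacetylases remove acetyl groups from lysines of histones and other proteins, the reverse of what acetyltransferases such as p300 and CBP do. Hdac1 and Hdac2 are the catalytic subunits of the Sin3, NuRD, CoREST and MiDAC corepressor complexes, and Hdac3 is the catalytic subunit of the NCoR and SMRT complexes. Class IIa enzymes have little activity of their own, bind MEF2 transcription factors and leave the nucleus when kinases phosphorylate them. Hdac6 is a mostly cytoplasmic tubulin deacetylase, Hdac10 deacetylates polyamines, and Hdac11 removes long fatty acyl groups from lysine. In the intestinal epithelium Hdac1 and Hdac2 are known to act together in crypt cell renewal and differentiation, and Hdac3 is known for its part in the response to the microbiota.

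The series measured RNA in 92 libraries of 21 groups after deletion of Eif4g2, a translation initiation factor of the eIF4G family, or after A-485, an inhibitor of the acetyltransferase activity of p300 and CBP. All mice, organoids and spheroids carried a tamoxifen-activated Cre, either from Rosa26, which is active in all cell types, or from Vil1, which is active in the intestinal epithelium. Rosa26-CreER mice were Eif4g2 flox/flox (homozygous deletion, 4 crypt and 5 villus libraries) or flox/+ (heterozygous, 5 and 5), all received tamoxifen and were sampled on day 9. Vil1-CreER mice were flox/flox (3 crypt and 6 villus libraries) or flox/+ (4 and 4). All received tamoxifen at 100 mg/kg for 4 days and were sampled at month 3. So the mouse controls had lost 1 copy, and no untreated mouse is among these groups. A first set of adult small intestinal organoids comprised 3 flox/flox lines given DMSO or 0.5 µM 4-hydroxytamoxifen (4-OHT) for 24 h and sampled on day 6. A second set was given 4-OHT in all libraries and comprised 4 flox/flox lines, 4 flox/+ lines and 4 libraries with CreER and intact Eif4g2, called CreER-only below. Fetal intestinal spheroids comprised 6 flox/flox and 5 flox/+ lines, each given DMSO or 4-OHT. The second set and the spheroids also had 0.5 µM 4-OHT for 24 h, or DMSO where named, and sampling on day 6. The organoids and spheroids of these sets all carried Rosa26-CreER. A-485 was given at 0, 3, 5 or 10 µM, with sampling on day 4, to 4 organoid lines that had received no 4-OHT: 1 with intact Eif4g2 and 3 flox/flox lines, 1 of which was also in the first set.

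In the coordinates of the tables (GRCm38), Hdac11 (ENSMUSG00000034245) lies at chr6:91156665-91174692, Hdac5 (ENSMUSG00000008855) at chr11:102194432-102230166, Hdac4 (ENSMUSG00000026313) at chr1:91928779-92195699, Hdac7 (ENSMUSG00000022475) at chr15:97792664-97844502, Hdac1 (ENSMUSG00000028800) at chr4:129516104-129542713 and Hdac2 (ENSMUSG00000019777) at chr10:36974544-37001889. Hdac6 and Hdac8 are on the X chromosome. Each value below counts reads over a whole gene, so isoforms are not separated. GENCODE vM21 places genes on the opposite strand whose exons overlap those of Hdac4 (Gm26720, 3536 bases), Hdac11 (Gm44002, 594 bases, and Gm14573, 96 bases) and Hdac7 (Slc48a1, 29 bases). The libraries kept strand, but a strand setting for the counting is not given in the sources used here, so the counts of these 3 genes are uncertain by the reads of their partners. The same holds for Hdac5 and Mir8101, which share 111 exonic bases on the same strand.

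The RefSeq promoter table (GRCm38.p6) had an entry for 7 of the 10 genes, all but Hdac1, Hdac3 and Hdac10. The sequences shown are those before the start sites of Hdac11 and Hdac5, called lower in 9 and 4 deletion comparisons and at 5 and 10 µM A-485, of Hdac4, higher after deletion, and of Hdac2, with the largest crypt to villus difference of class I. Each is 250 bases long except that of Hdac11, which ends just before the first base that GENCODE assigns to an exon, and all are written 5′ to 3′ on the strand of the gene. Capitals mark GGGCGG, the core of an Sp1 site, and CCAAT, the core of an NF-Y site, found on either strand, so that CCGCCC and ATTGG are the same motifs reversed. TATAAA was searched in the same way.
Hdac11, chr6:91156565-91156664, plus strand: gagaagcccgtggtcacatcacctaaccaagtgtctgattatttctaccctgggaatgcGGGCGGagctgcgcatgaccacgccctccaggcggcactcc
Hdac5, chr11:102230173-102230422, minus strand: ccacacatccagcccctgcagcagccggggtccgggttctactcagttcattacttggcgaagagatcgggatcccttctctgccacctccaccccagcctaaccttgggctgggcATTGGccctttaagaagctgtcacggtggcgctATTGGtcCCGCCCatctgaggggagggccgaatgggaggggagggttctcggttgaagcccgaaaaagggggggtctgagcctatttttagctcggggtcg
Hdac4, chr1:92180342-92180591, minus strand: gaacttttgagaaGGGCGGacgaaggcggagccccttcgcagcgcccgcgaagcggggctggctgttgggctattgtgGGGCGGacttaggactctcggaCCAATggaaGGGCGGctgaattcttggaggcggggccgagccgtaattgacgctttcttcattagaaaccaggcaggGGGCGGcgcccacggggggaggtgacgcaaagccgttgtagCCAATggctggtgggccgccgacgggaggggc
Hdac2, chr10:36974294-36974543, plus strand: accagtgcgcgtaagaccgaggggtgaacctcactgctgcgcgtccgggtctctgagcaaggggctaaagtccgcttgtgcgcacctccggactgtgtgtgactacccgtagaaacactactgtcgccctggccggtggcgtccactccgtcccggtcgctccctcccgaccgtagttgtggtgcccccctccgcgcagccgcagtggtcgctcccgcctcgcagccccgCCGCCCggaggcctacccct
The Hdac4 stretch held 4 GGGCGG and 2 CCAAT, that of Hdac5 held 1 and 2, and those of Hdac2 and Hdac11 held 1 GGGCGG each and no CCAAT. None of the 4 held TATAAA. Of 32851 promoters in the table, 32.7% held GGGCGG, 33.8% CCAAT and 12.4% TATAAA in the 250 bases before the start, and 10.5%, 13.6% and 5.24% did so in the first 100 bases of that window, the part shown for Hdac11. The RefSeq start of Hdac4 lies 15358 bases inside the gene as the tables draw it. A match is a description of letters and no match says only that they are not in this window.

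Library totals ran from 8652040 to 37611126 counts. Eif4g2 itself was lower in all 7 groups in which it was deleted: 48.3 to 98.3 CPM (counts scaled to a fixed library size) in homozygous Rosa26-CreER tissue against 319 to 384 in heterozygous tissue, 134 to 240 against 357 to 488 in Vil1-CreER tissue, and 88.9 to 251 against 352 to 1247 in the organoid and spheroid sets. The epithelial markers Epcam, Cdh1, Krt8, Krt18 and Vil1 were detected in every group, with a summed level of at least 3028 CPM. The summed level of 4 crypt stem cell markers (Lgr5, Olfm4, Ascl2, Smoc2) was 3699 to 6360 CPM in heterozygous Rosa26-CreER crypts and 6.01 to 55.6 CPM in the matching villi. Within flox/+ spheroids given 4-OHT that sum ran from 112 to 6122 CPM, so the fetal lines differed widely among themselves. In Rosa26-CreER mice, transcripts of the Y chromosome were present in 1 of 4 homozygous crypt libraries and 2 of 5 homozygous villus libraries against 5 of 5 heterozygous libraries of each tissue, so sex and genotype overlap there. Mitochondrial genes took 18.9% of counts in homozygous against 8.55% in heterozygous Rosa26-CreER crypts, and 35.7% against 23.3% in Vil1-CreER crypts. In villi the share was lower when homozygous, at 5.03% against 9.75% in Rosa26-CreER and 12.5% against 17.1% in Vil1-CreER mice. Heterozygous Rosa26-CreER villus libraries ran from 2.74% to 24.46%. The part of sex in the values below is given where a fit with Y-chromosome transcripts changed a call. Mitochondrial share was a term in no fit. Mitochondrial genes were only left out as an alternative, which does not adjust for their share.

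All 10 genes passed the filter on low counts in every comparison, and all were detected in every library, from 25 reads (the lowest, Hdac8) to 4699 (the highest, Hdac1). Levels of different genes are compared only per kilobase (kb) of the gene length in the tables. On that scale (CPM per kb, group means) Hdac1 ranked first in 17 of 21 groups and Hdac3 in the other 4, and both were among the top 3 in 21 groups. Hdac1, Hdac2 and Hdac3 together made up between 62.1% of the summed level of the 10 genes in heterozygous Rosa26-CreER villi and 81.6% in flox/flox spheroids with DMSO. Hdac8, the remaining class I gene, never ranked above 8. In heterozygous Rosa26-CreER crypts the order was Hdac1 at 18.9 ± 0.72 CPM per kb (SD, n = 5), Hdac3 at 18.1 ± 0.68, Hdac2 at 12.2 ± 1.4 and Hdac11 at 7.37 ± 0.98, with the other 6 genes between 1.25 (Hdac8) and 3.92 (Hdac5). There Hdac1 and Hdac3 differed by less than the sum of their SDs, while Hdac3, Hdac2 and Hdac11 were each separated by more.

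**Figure D1:**
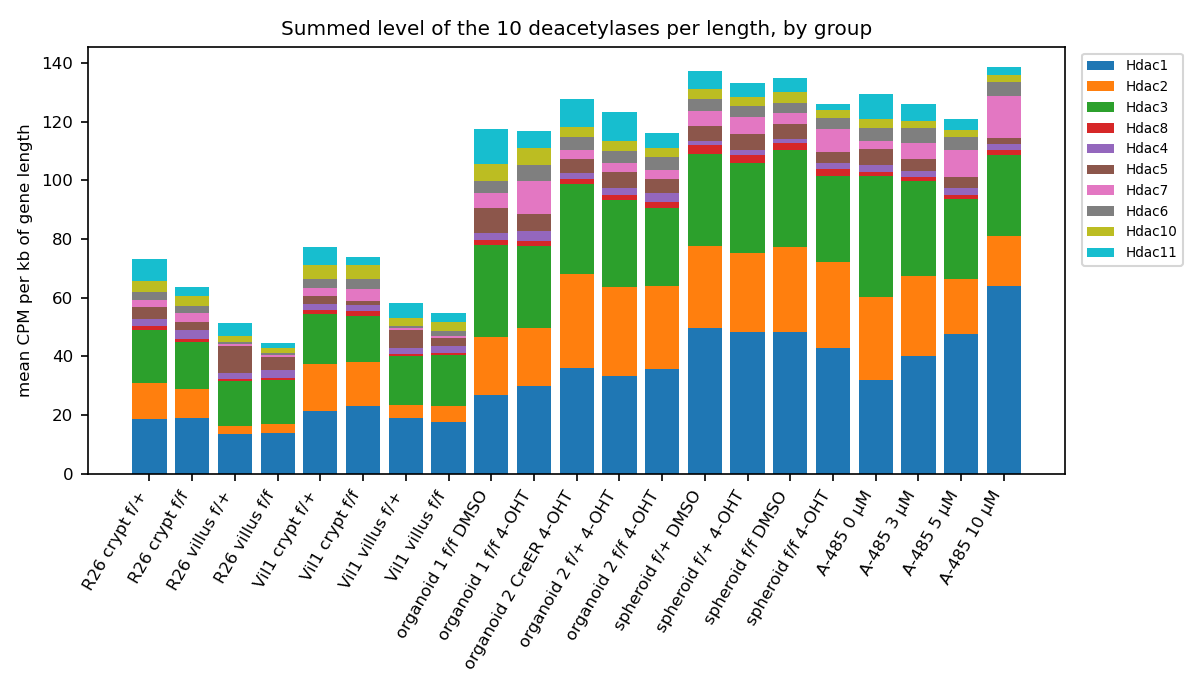
Stacked bars of mean CPM per kb for each of the 10 genes in the 21 groups (f/f and f/+ are flox/flox and flox/+). Hdac1 (blue), Hdac2 (orange) and Hdac3 (green) fill most of every bar, and the orange block is thin in the 4 villus groups, where Hdac2 lies between 2.63 and 5.40 CPM per kb. Sets were scaled separately, so bar heights are compared within a set.

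Crypts, which hold stem and dividing cells, and villi, which hold differentiated cells, came from the same heterozygous animals. The main fits compared them as groups, with animal as a block only among the alternatives. Of the 10 genes, 9 were higher and 1 lower in crypts than in villi of Rosa26-CreER flox/+ mice at an edgeR adjusted p under 0.05, the threshold for a call throughout. Of all 16495 genes tested there, 38.6% were called higher and 32.9% lower. In Vil1-CreER flox/+ mice 5 were higher and 1 lower, against 32.9% and 31.7% of 17821 genes. The median absolute log2 fold change of the 10 genes was 0.93 in the first line, beside 1.11 over all genes, and 0.81 in the second, beside 0.99. Differences in RNA per cell and in the number of cells of a type cannot be told apart in these bulk libraries.

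Hdac2 stood at 50.3, 60.9, 49.9, 49.6 and 61.9 CPM in the 5 Rosa26-CreER flox/+ crypt libraries and at 11.5, 12.4, 11.8, 9.89 and 13.2 CPM in the villi. Every crypt library lay far above every villus library, in 5 of 5 animals. Its log2 fold change, crypt over villus, was 2.21 ± 0.13 (SE; edgeR adjusted p = 7.49e-11), and 1.80 ± 0.13 in Vil1-CreER flox/+ mice (edgeR adjusted p = 2.94e-09). Hdac1, its partner in the same complexes, differed by 0.47 ± 0.07 (edgeR adjusted p = 4.76e-06) and by 0.17 ± 0.09 (edgeR adjusted p = 0.112). The ratio of Hdac1 to Hdac2 per kb was 1.56 ± 0.17 (SD, n = 5) in Rosa26-CreER flox/+ crypts and 5.23 ± 0.69 (n = 5) in the villi, and 1.34 ± 0.07 and 4.21 ± 0.75 (n = 4 each) in the Vil1-CreER animals. The ranges of the ratio, 1.33 to 1.75 against 4.47 to 6.12 in the first set, did not overlap. Hdac3 differed little after TMM, by 0.22 ± 0.09 (edgeR adjusted p = 0.0312, lost with animal as a block, adjusted p = 0.0529, and without crypt replicate 2 or 5 or villus replicate 3 or 5, adjusted p up to 0.0941) and 0.03 ± 0.09 (edgeR adjusted p = 0.763). Hdac8 was higher in crypts in both lines of mice, by 1.03 ± 0.18 (edgeR adjusted p = 4.18e-05) and 0.73 ± 0.21 (edgeR adjusted p = 0.00538).

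Class IIa split in direction between the compartments. Hdac5 read 27.3, 35.0, 45.5, 30.8 and 33.4 CPM in the Rosa26-CreER flox/+ crypts and 69.0, 96.1, 63.5, 95.2 and 86.7 in the villi, with no overlap, and was the 1 gene lower in crypts. Its log2 fold change was -1.25 ± 0.19 (edgeR adjusted p = 9.5e-06), and -1.12 ± 0.15 (edgeR adjusted p = 4.63e-06) in the Vil1-CreER mice. Hdac7 went the other way, at 13.9 to 19.1 CPM in Rosa26-CreER flox/+ crypts against 1.38 to 6.91 in villi. It was higher in crypts by 2.22 ± 0.32 (edgeR adjusted p = 5.13e-06) and, in the Vil1-CreER mice, by 1.97 ± 0.28 (edgeR adjusted p = 6.95e-06). Hdac4 showed a small difference in the first line of mice (0.41 ± 0.17, edgeR adjusted p = 0.0387, lost without crypt replicate 1 or 2 or villus replicate 3 or 4, adjusted p up to 0.105) and -0.02 ± 0.11 in the other (edgeR adjusted p = 0.872).

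Hdac6, the tubulin deacetylase, had 16.8, 18.1, 15.7, 13.6 and 15.8 CPM in Rosa26-CreER flox/+ crypts and 3.92, 3.33, 4.99, 5.37 and 4.12 CPM in the villi, again without overlap. The log2 fold changes were 1.88 ± 0.16 (edgeR adjusted p = 3.94e-09) and 1.96 ± 0.25 in the Vil1-CreER mice (edgeR adjusted p = 1.88e-06). Hdac10 was higher in crypts by 0.69 ± 0.17 (edgeR adjusted p = 0.00112) and 0.88 ± 0.19 (edgeR adjusted p = 0.000514). Hdac11 was higher in Rosa26-CreER crypts by 0.82 ± 0.26 (edgeR adjusted p = 0.00932), and in Vil1-CreER mice its difference was 0.16 ± 0.22 (edgeR adjusted p = 0.541). All 5 proliferation markers (Mki67, Top2a, Ccnb1, Mcm5, Pcna) were called higher in crypts of both lines, with summed levels of 718 to 889 CPM in crypts and 62.2 to 87.7 in villi of the Rosa26-CreER animals, and their part in these differences was not tested.

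**Figure D2:**
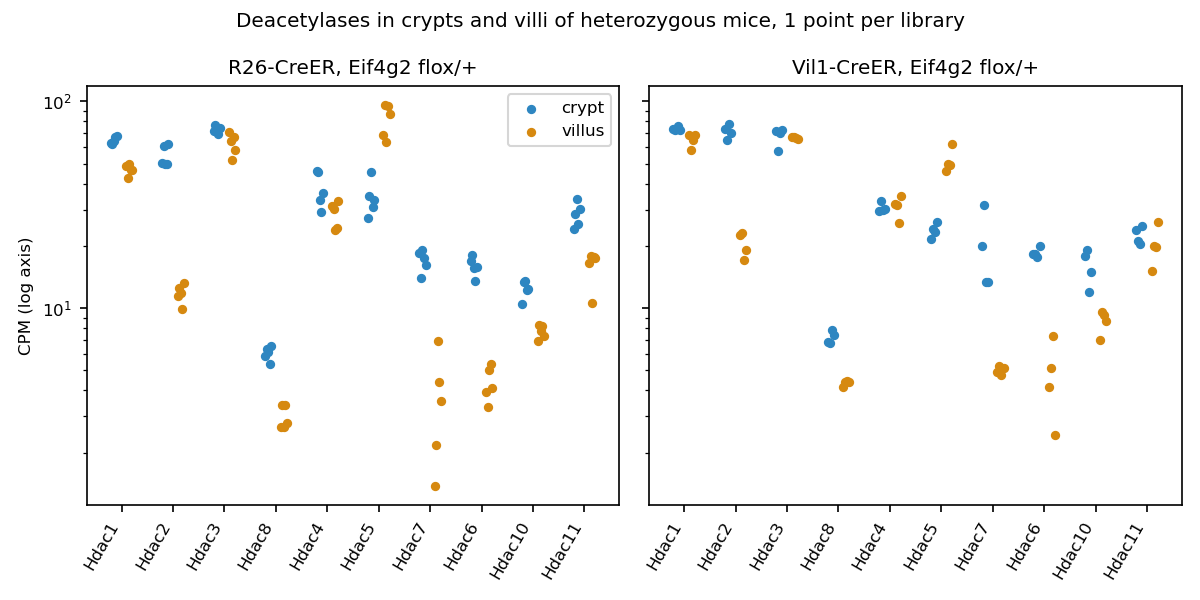
CPM on a log axis of the 10 genes in crypt (blue) and villus (orange) libraries of heterozygous Rosa26-CreER (left, 5 animals) and Vil1-CreER (right, 4 animals) mice, 1 point per library. In both lines Hdac1, Hdac2, Hdac8, Hdac7, Hdac6 and Hdac10 sit higher in every crypt library than in any villus library, and Hdac5 sits lower. The gap is narrow for Hdac1 in Vil1-CreER mice, where it was not called.

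The 9 comparisons of deletion set libraries with both copies of Eif4g2 deleted against controls. The 2 comparisons of the second organoid set share their flox/flox libraries, the 2 of the spheroids share theirs, and most crypt and villus libraries of a mouse line come from the same animals, so these are not independent. Homozygous replicate 5 of Rosa26-CreER crypts and of villi, for one, is a single mouse. In Rosa26-CreER crypts 0 of the 10 genes were called higher and 1 lower, where 8.63% and 11.6% of 15846 genes were. In Rosa26-CreER villi 1 was higher and 2 lower, against 15% and 18.2% of 13579 genes. In Vil1-CreER crypts 0 were higher and 2 lower (11.6% and 17.7% of 16954 genes), and in the villi of that line 1 higher and 2 lower (20.9% and 21.6% of 15107 genes). First-set organoids had 3 higher and 1 lower (18.2% and 17.2% of 15297 genes). Second-set flox/flox organoids had 2 higher and 3 lower against flox/+ (22.6% and 24.3% of 14220 genes) and 2 higher and 2 lower against CreER-only (21.9% and 23.5%). Flox/flox spheroids had 1 higher and 1 lower after 4-OHT (9.01% and 10% of 15032 genes), and 0 higher and 1 lower against flox/+ spheroids (4.36% and 6.13%). The shares of the family called were therefore near or below those of all genes in most comparisons. The median absolute log2 fold change of the 10 genes was 0.21 in Rosa26-CreER crypts, beside 0.32 over all genes, and 0.30 in first-set organoids, beside 0.34. What recurred were single genes, above all Hdac11.

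**Figure D3:**
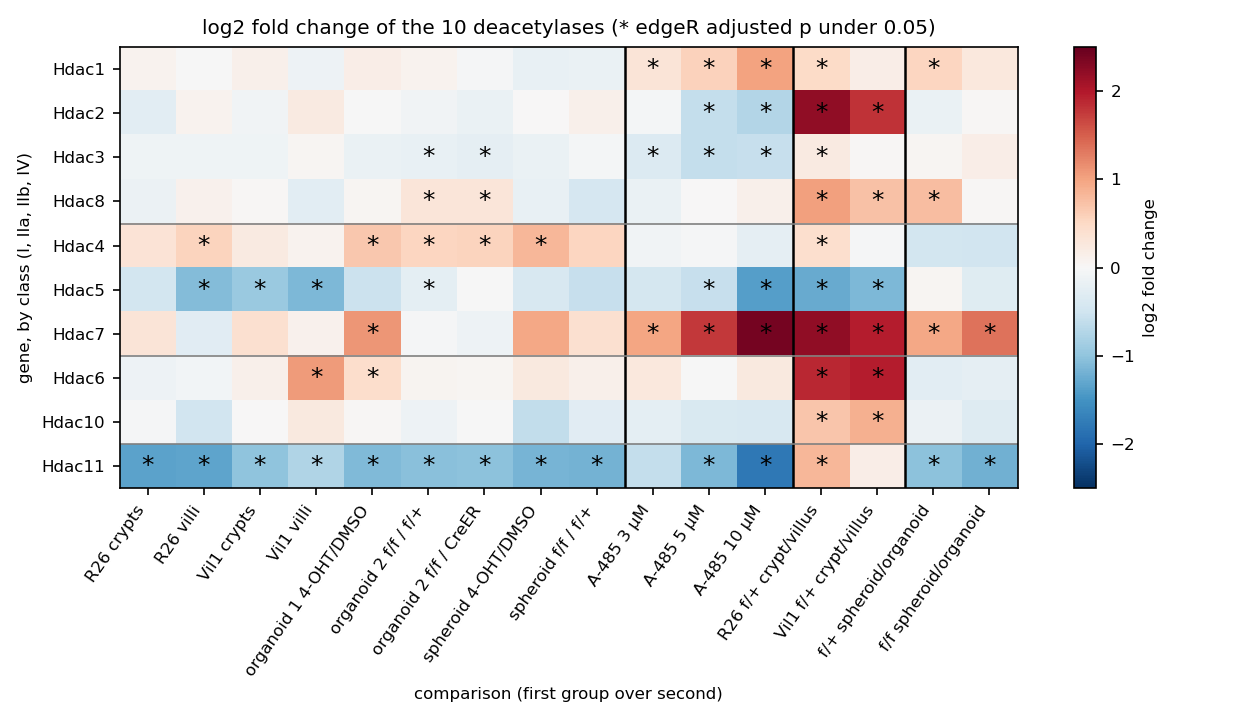
Log2 fold changes (colour) of the 10 genes, in rows by class, in the 9 deletion comparisons, the 3 A-485 doses, crypt against villus and fetal against adult, in columns, with an asterisk at an edgeR adjusted p under 0.05. The Hdac11 row is blue with an asterisk in all 9 deletion columns, between -0.76 and -1.33, and the Hdac7 row is darkest red at 10 µM A-485, at 2.40.

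Hdac11 was lower in all 9 deletion comparisons, by 0.76 to 1.33 on the log2 scale. In Rosa26-CreER crypts the 4 homozygous libraries read 8.65, 8.07, 8.19 and 18.9 CPM and the 5 heterozygous ones 24.0, 28.6, 33.6, 25.5 and 30.1. One homozygous library stood above the other 3, and the groups did not overlap. The log2 fold change was -1.33 ± 0.25 (edgeR adjusted p = 0.00653). In the villi, homozygous libraries read 7.09, 3.71, 5.79, 5.46 and 10.96 CPM and heterozygous ones 16.5, 17.9, 10.5, 17.7 and 17.5. The highest homozygous library lay just above the lowest heterozygous one. The log2 fold change there was -1.32 ± 0.26 (edgeR adjusted p = 0.00319), and the effects in crypts and villi differed by 0.09 ± 0.39 (edgeR adjusted p = 0.906).

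At month 3 in Vil1-CreER mice, Hdac11 read 10.2, 11.6 and 12.2 CPM in homozygous crypts and 23.9, 21.1, 20.4 and 25.1 in heterozygous crypts, with no overlap and a log2 difference of -0.997 ± 0.11 (edgeR adjusted p = 0.000626). In villi the 6 homozygous libraries ran from 7.56 to 16.3 CPM with a median of 12.3, and the heterozygous ones read 15.2, 20.01, 19.7 and 26.1. The groups overlapped, and the log2 difference was -0.76 ± 0.24 (edgeR adjusted p = 0.0216). Without heterozygous replicate 4, the highest library, the value was -0.61 (edgeR adjusted p = 0.0844).

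In the first organoid set Hdac11 went from 44.6, 46.0 and 47.7 CPM with DMSO to 20.6, 22.5 and 21.1 with 4-OHT in the same 3 lines, a log2 difference of -1.105 ± 0.08 (edgeR adjusted p = 0.000326). Replicates were tight, and the groups were far apart. In the second set flox/flox organoids read 20.6, 18.8, 17.9 and 16.9 CPM, flox/+ organoids 38.1, 35.9, 37.5 and 40.9, and CreER-only organoids 40.8, 38.1, 33.4 and 38.4. The flox/flox libraries lay below all 8 others. Their log2 fold change was -1.05 ± 0.08 against flox/+ (edgeR adjusted p = 1.89e-07) and -1.02 ± 0.08 against CreER-only (edgeR adjusted p = 2.38e-07). Loss of 1 copy left a difference of 0.02 ± 0.08 between flox/+ and CreER-only organoids (edgeR adjusted p = 0.947). In that comparison none of the 10 genes was called by edgeR, where 0.113% of 14220 genes were. With DESeq2 the count was also 0, and 2 of the 10 genes had an unadjusted p under 0.05.

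In flox/flox fetal spheroids Hdac11 ran from 12.01 to 23.5 CPM with a median of 19.2 under DMSO and from 4.46 to 11.4 with a median of 7.61 after 4-OHT, falling in 6 of 6 lines without overlap. The log2 fold change was -1.16 ± 0.29 (edgeR adjusted p = 0.00839). Flox/+ spheroids read 22.4, 18.1, 15.8, 21.3 and 37.3 CPM with DMSO and 16.0, 13.5, 11.8, 15.9 and 35.8 with 4-OHT, lower in 5 of 5 lines by a smaller step. That difference was -0.30 ± 0.32 (edgeR adjusted p = 1). The change in flox/flox exceeded that in flox/+ by -0.86 ± 0.43 (edgeR adjusted p = 0.375), and with line as a block, since both treatments came from the same lines, by -0.83 (edgeR adjusted p = 0.0196). Against flox/+ spheroids with 4-OHT the difference was -1.19 ± 0.30 (edgeR adjusted p = 0.0156). It rested on flox/+ replicate 5, without which it was -0.80 (edgeR adjusted p = 0.0753).

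The summed level of 4 enteroendocrine markers (Chga, Chgb, Neurod1, Tph1) was lower after deletion, as Hdac11 was. It was 58.3 to 194 CPM in homozygous against 316 to 568 in heterozygous Rosa26-CreER crypts and 216 to 276 against 552 to 749 in flox/flox and flox/+ second-set organoids. That of 4 tuft cell markers (Dclk1, Trpm5, Il25, Pou2f3) was 4.53 to 7.37 against 24.1 to 37.2 CPM in the same organoids, where Il25 was at 0 in the flox/flox group and in the CreER-only group. Crypt stem cell markers fell in the same groups, from 5171 to 7104 CPM to 1327 to 2113 in the organoids. Paneth cell markers (Lyz1, Mmp7, Itln1, Ang4) did so too, from 2992 to 4091 CPM to 1009 to 1292 in the organoids. In Rosa26-CreER crypts they summed to 11490 to 16130 CPM when heterozygous and 1621 to 7234 when homozygous. Hdac11 was also called for Rosa26-CreER flox/+ crypt against villus and for spheroids against organoids. There the mean enteroendocrine sum went in the direction of Hdac11, though no single marker was called. It was 418.5 CPM in those crypts and 274.3 in the villi. With 4-OHT it was 424.3 in flox/+ spheroids and 645.9 in flox/+ organoids, and 69.8 and 251.7 when flox/flox. The part of these cell types in the change of Hdac11 was not tested. Immune markers summed to 103 to 1783 CPM in homozygous and 173 to 684 in heterozygous Rosa26-CreER crypts, ranges that overlapped. Of 8 immune and 7 stromal markers tested there, 0 were called. In Vil1-CreER crypts 2 of 8 and 1 of 5 were called higher when homozygous. The immune and stromal sums were 1.18 to 3.30 and 0.95 to 1.61 CPM in the flox/flox second-set organoids. Their part in the values of Hdac11 was not tested.

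**Figure D4:**
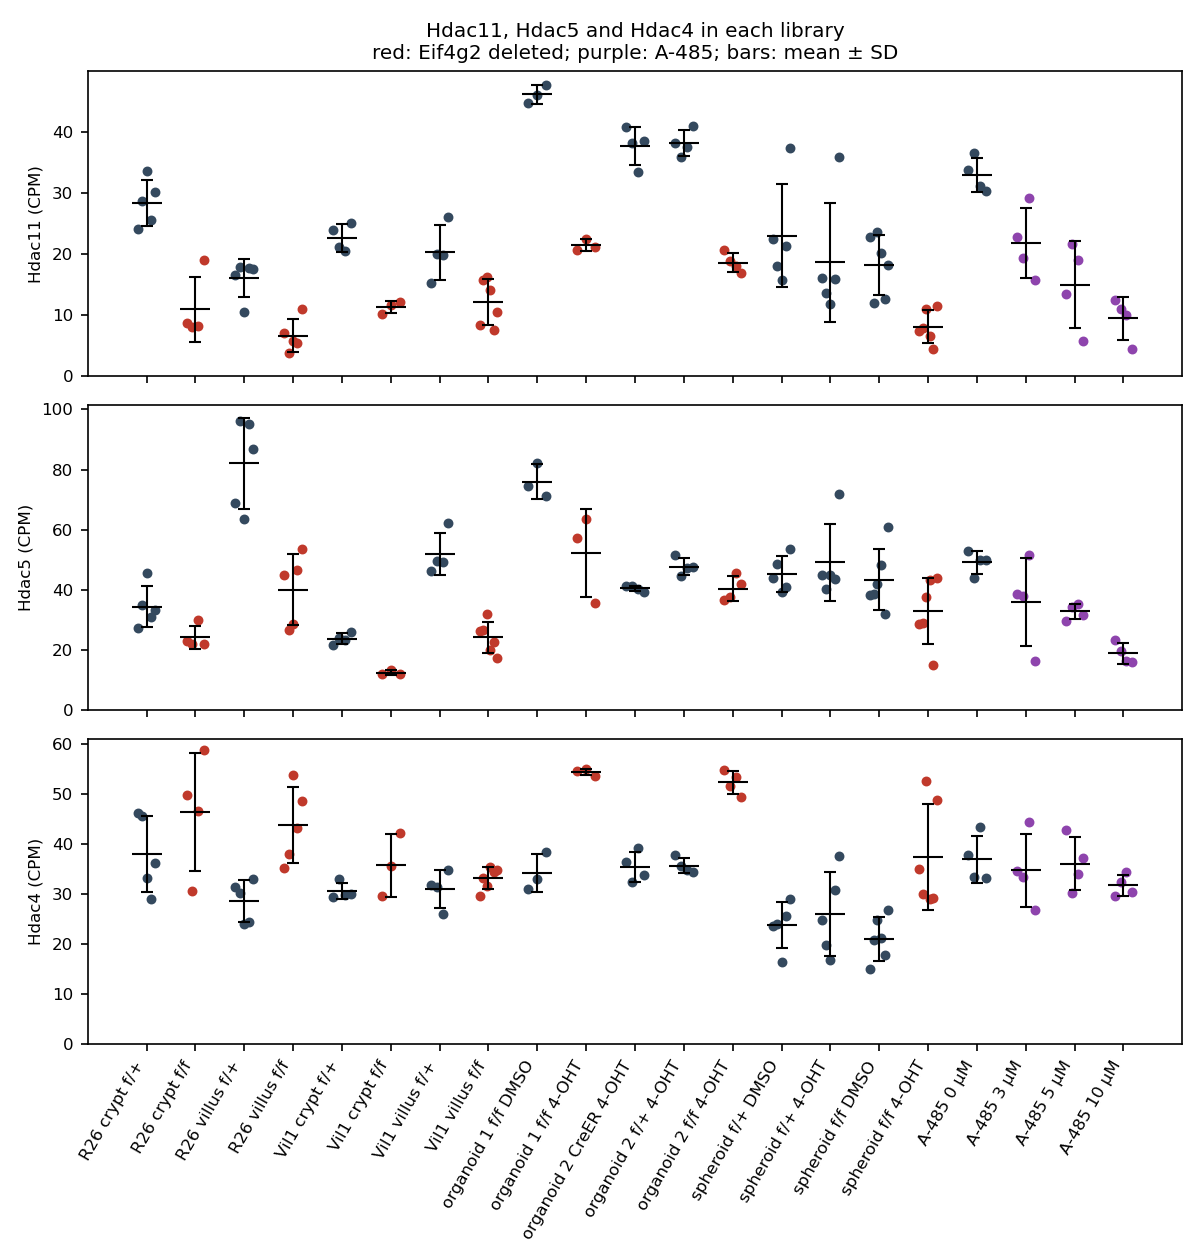
CPM of Hdac11, Hdac5 and Hdac4 in each library of the 21 groups, with the mean and SD in black, homozygous deletion in red, A-485 in purple and all other groups in dark grey. Red points of Hdac11 lie mostly below their controls, with overlap in the villi of both mouse lines, those of Hdac5 do so most clearly in tissue, and those of Hdac4 lie above their controls most clearly in organoids.

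Hdac5, a class IIa corepressor of MEF2 factors, had a negative log2 fold change in all 9 deletion comparisons and was called in 4. In Rosa26-CreER villi homozygous libraries read 44.9, 26.6, 28.7, 46.6 and 53.5 CPM and heterozygous ones 69.0, 96.1, 63.5, 95.2 and 86.7. All homozygous libraries were lower, and the log2 fold change was -1.08 ± 0.21 (edgeR adjusted p = 0.00282). In Vil1-CreER crypts the values were 12.1, 13.3 and 12.04 CPM against 21.7, 24.0, 23.3 and 26.1, also without overlap (-0.93 ± 0.10, edgeR adjusted p = 0.000418). Vil1-CreER villi ran from 17.3 to 32.0 CPM with a median of 24.6 when homozygous and stood at 46.2, 49.6, 49.4 and 62.1 when heterozygous (-1.12 ± 0.17, edgeR adjusted p = 0.000161). In Rosa26-CreER crypts the value was -0.45 ± 0.17 and missed the threshold (edgeR adjusted p = 0.0858), and without homozygous replicate 4 it was -0.60 (edgeR adjusted p = 0.0487).

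Organoids gave smaller differences in Hdac5. In the first set DMSO libraries read 74.7, 82.3 and 71.1 CPM and 4-OHT libraries 57.4, 63.4 and 35.6. It was lower in 3 of 3 lines, by -0.54 ± 0.20 (edgeR adjusted p = 0.0747), and with line as a block by -0.58 (edgeR adjusted p = 0.017). In the second set it was lower in flox/flox than in flox/+ by 0.25 on the log2 scale (SE 0.07, edgeR adjusted p = 0.00983), but its difference from CreER-only was -0.01 ± 0.07 (edgeR adjusted p = 0.957), since flox/+ libraries stood at 44.7 to 51.4 CPM and CreER-only libraries at 39.4 to 41.2. The flox/flox libraries read 36.8, 37.6, 45.5 and 41.9 CPM and overlapped both. Flox/flox spheroids differed by -0.40 ± 0.22 after 4-OHT (edgeR adjusted p = 0.219), lower in 6 of 6 lines, and with line as a block by -0.46 (edgeR adjusted p = 0.0243).

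Hdac4, of the same class, moved the other way, with a positive log2 fold change in all 9 deletion comparisons and a call in 5. First-set organoids went from 31.1, 33.1 and 38.4 CPM to 54.7, 55 and 53.7 after 4-OHT. The 3 deleted libraries lay close together and above all controls, and the log2 difference was 0.67 ± 0.10 (edgeR adjusted p = 0.00244). Second-set flox/flox organoids read 54.9, 51.7, 53.4 and 49.4 CPM against 34.4 to 37.8 in flox/+ and 32.3 to 39.2 in CreER-only organoids, higher by 0.54 ± 0.07 (edgeR adjusted p = 2.1e-05) and 0.56 ± 0.07 (edgeR adjusted p = 1.7e-05). Flox/flox spheroids ran from 14.96 to 26.8 CPM with a median of 21.01 under DMSO and from 28.9 to 52.8 with a median of 32.5 after 4-OHT, higher in 6 of 6 lines and without overlap (0.83 ± 0.21, edgeR adjusted p = 0.00904). In flox/+ spheroids the difference was 0.13 ± 0.23 (edgeR adjusted p = 1). The change in flox/flox exceeded it by 0.70 ± 0.31 (edgeR adjusted p = 0.31), and with line as a block by 0.71 (edgeR adjusted p = 0.0138).

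In tissue Hdac4 was called only in Rosa26-CreER villi among the 4 comparisons, at 35.3, 38.0, 53.9, 43.3 and 48.7 CPM in homozygous and 31.4, 30.3, 24.0, 24.3 and 33.1 in heterozygous libraries. The groups did not overlap, and the log2 fold change was 0.56 ± 0.14 (edgeR adjusted p = 0.00902). With Y-chromosome transcripts (present or absent) in the model it was 0.30 (edgeR adjusted p = 0.164). As they were present in 2 of 5 homozygous and 5 of 5 heterozygous villus libraries, that value rests on 2 homozygous libraries. The other 3 values were 0.34 ± 0.18 in Rosa26-CreER crypts and, in Vil1-CreER mice, 0.23 ± 0.12 in crypts and 0.08 ± 0.11 in villi (edgeR adjusted p = 0.218, 0.185 and 0.593). The exonic overlap of Hdac4 with Gm26720 noted above applies to all of these values.

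Hdac7, the third class IIa gene measured, is known for roles in endothelial cells and thymocytes. First-set organoids had 35.4, 43.9 and 25.0 CPM with DMSO and 91.5, 77.0 and 57.4 with 4-OHT, higher in 3 of 3 lines and without overlap. Its log2 fold change was 1.11 ± 0.24 (edgeR adjusted p = 0.0105). In the second set it read 18.3, 16.6, 24.2 and 21.04 CPM in flox/flox and 15.6, 22.4, 21.6 and 21.3 in flox/+ organoids, which overlapped throughout (-0.03 ± 0.13, edgeR adjusted p = 0.891). The difference between the 2 organoid sets was not tested. Flox/flox spheroids ran from 7.24 to 52.7 CPM with DMSO (median 24.6) and from 28.6 to 100.2 with 4-OHT (median 47.0). Hdac7 was higher in 6 of 6 lines, by 0.97 ± 0.37 (edgeR adjusted p = 0.0728), and with line as a block by 1.05 (edgeR adjusted p = 0.00181). Without DMSO replicate 6, the highest, the value was 1.27 (edgeR adjusted p = 0.0151). In the 4 tissue comparisons its values lay between -0.28 and 0.40 and none was called. Without heterozygous replicate 2 the value in Vil1-CreER crypts went from 0.40 to 0.73 (edgeR adjusted p = 0.0231). The summed level of 4 endothelial markers (Pecam1, Cdh5, Kdr, Egfl7) ran from 3.63 to 4.14 CPM in the first-set DMSO and from 3.10 to 4.03 in the 4-OHT organoids, with Cdh5 at 0 in the latter.

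Hdac6 was called in 2 deletion comparisons, higher in both. In Vil1-CreER villi homozygous libraries ran from 6.82 to 13.7 CPM with a median of 10.2, against 4.16, 5.12, 7.30 and 2.42 in heterozygous ones. The groups overlapped by 1 library of each, and the log2 fold change was 1.07 ± 0.28 (edgeR adjusted p = 0.00755). In Vil1-CreER crypts, where its level was higher, the value was 0.14 ± 0.09, and the effect in villi exceeded that in crypts by 0.96 ± 0.34 (edgeR adjusted p = 0.0646). First-set organoids went from 23.2, 24.6 and 22.5 CPM to 32.8, 28.8 and 33.3 (0.43 ± 0.10, edgeR adjusted p = 0.0118), a call lost without DMSO replicate 1 (adjusted p = 0.0539) and with the A-485 libraries in the fit (adjusted p = 0.0737). Hdac10 was called in none of the 9, with values from -0.61 to 0.24. The lowest was in flox/flox spheroids after 4-OHT, where it was lower in 6 of 6 lines (edgeR adjusted p = 0.0591, and 0.0133 with line as a block).

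Among the class I genes, Hdac3 and Hdac8 were called after deletion, both in the second organoid set. Hdac1 lay between -0.18 and 0.16 and Hdac2 between -0.26 and 0.22 over the 9 comparisons, and neither was called in any. Hdac1 was lower in 6 of 6 flox/flox spheroid lines after 4-OHT and higher in 3 of 3 first-set organoid lines, and Hdac3 was lower in 6 of 6 and in 3 of 3, with none of these 4 values called. With Y-chromosome transcripts (present or absent) in the model Hdac2 was lower in homozygous Rosa26-CreER crypts, by 0.58 on the log2 scale. Those transcripts were present in 1 of 4 homozygous and 5 of 5 heterozygous crypt libraries. That value therefore rests on 1 homozygous library, and no p-value is given for it. Hdac3 was called in the second organoid set, at 109, 110, 102 and 102 CPM in flox/flox, 119, 121, 117 and 121 in flox/+ and 120, 128, 116 and 131 in CreER-only organoids. The flox/flox libraries lay below all others, by 0.18 on the log2 scale (SE 0.05, edgeR adjusted p = 0.012) and 0.23 (SE 0.05, edgeR adjusted p = 0.0033). Hdac8 was higher in the same organoids, at 10.2, 11.3, 10.1 and 9.26 CPM against 7.60 to 8.83 in flox/+ and 8.08 to 8.59 in CreER-only libraries. Its log2 fold changes were 0.30 ± 0.11 (edgeR adjusted p = 0.0313) and 0.31 ± 0.11 (edgeR adjusted p = 0.0278), and each call was lost in 8 of 14 alternative fits, 1 of them without flox/flox replicate 2 (0.24, edgeR adjusted p = 0.104, and 0.25, edgeR adjusted p = 0.0939). The other libraries whose absence ended a call were flox/flox replicates 1 and 3 and flox/+ replicates 2, 3 and 4 for the first value, and flox/flox replicate 1 and CreER-only replicates 2, 3 and 4 for the second. In spheroids with 4-OHT Hdac8 had the opposite sign in flox/flox against flox/+ (-0.42 ± 0.22, edgeR adjusted p = 0.245).

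Controls of the design gave no calls by edgeR among the 10 genes. In flox/+ spheroids, 4-OHT against DMSO, 0% of 15032 genes were called, and none of the 10 had an unadjusted p under 0.05, where 15 of all genes did. Eif4g2 itself, of which these lines lost 1 copy, was not called in that fit either (-0.81). The fit had no line term, while the deviations of libraries from the same line correlated at 0.626 to 0.857. It could therefore miss a change of that size, and the lack of calls does not show that 4-OHT had no effect. For flox/flox against flox/+ spheroids under DMSO 0% were called too, with 1084 of all genes and none of the 10 at an unadjusted p under 0.05, and DESeq2 also called none of the 10 in either. The effect of genotype did not differ between villi and crypts for any of the 10 genes in either line of mice by edgeR, where 11.5% and 15.5% of all genes were called. In each line 1 of the 10 had an unadjusted p under 0.05, and DESeq2 called Hdac6 in the Vil1-CreER mice. The 4-OHT effect differed between flox/flox and flox/+ spheroids for none of the 10 by edgeR without a block. There 1.62% of all genes were called, and 1 of the 10 had an unadjusted p under 0.05. With line as a block 4 of the 10 were called (Hdac4, Hdac11, Hdac5 at -0.55 and Hdac7 at 0.82, edgeR adjusted p = 0.0496 and 0.0382 for the last pair). The share of all genes called with that block is not given here, so the 4 cannot be set beside 1.62%. With animal as a block, Hdac2 was called in the Rosa26-CreER mice (0.48, edgeR adjusted p = 0.0352).

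Organoids were compared at each dose of A-485. At 3 µM 2 genes were higher and 1 lower than with DMSO, where 10.8% and 8.42% of 13724 genes were. At 5 µM 2 were higher and 4 lower (24.4% and 25.1%), and at 10 µM again 2 higher and 4 lower (29.4% and 32.6%). Between doses, 1 was higher and 1 lower at 5 than at 3 µM (11.5% and 13%), and 2 higher and 1 lower at 10 than at 5 µM (6.44% and 12.4%). With 10 genes, 2 higher and 4 lower at 5 and 10 µM are shares near those of all genes. The 3 doses share their 4 DMSO libraries. The genes called higher were Hdac1 and Hdac7 at every dose, and those called lower were Hdac3 at every dose and Hdac2, Hdac5 and Hdac11 at 5 and 10 µM.

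Hdac7 read 20.9, 17.02, 14.4 and 20.4 CPM with DMSO, 49.5, 33.6, 35.9 and 25.0 at 3 µM, 65.0, 65.8, 53.7 and 64.7 at 5 µM, and 90.2, 127, 98.6 and 66.9 at 10 µM. It rose at each dose step in 4 of 4 lines. The log2 fold changes over DMSO were 0.99 ± 0.20 (edgeR adjusted p = 0.00233), 1.78 ± 0.20 (edgeR adjusted p = 1.49e-06) and 2.40 ± 0.21 (edgeR adjusted p = 1.77e-08). From 3 to 5 µM it rose by 0.79 ± 0.20 (edgeR adjusted p = 0.00726) and from 5 to 10 µM by 0.62 ± 0.20 (edgeR adjusted p = 0.0329), the last a call lost without any 1 of the libraries except 10 µM replicate 4, with an adjusted p of up to 0.14 in edgeR. The summed level of the 4 endothelial markers was 4.12 to 6.71 CPM with DMSO (Cdh5 and Kdr at 0), 1.64 to 6.05 at 3 µM (Cdh5 at 0), 1.93 to 3.57 at 5 µM (Cdh5 and Kdr at 0) and 0.872 to 2.99 at 10 µM (all but Egfl7 at 0). Their part in the change of Hdac7 was not tested.

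Hdac1 read 113, 115, 106 and 108 CPM with DMSO, 151, 139, 120 and 144 at 3 µM, 170, 165, 148 and 176 at 5 µM, and 234, 228, 206 and 215 at 10 µM. It too rose at each step in 4 of 4 lines, by 0.32 ± 0.09 (edgeR adjusted p = 0.0196), 0.58 ± 0.09 (edgeR adjusted p = 5.33e-05) and 1.00 ± 0.09 (edgeR adjusted p = 4.24e-08) over DMSO. The step from 3 to 5 µM was 0.25 ± 0.09 (edgeR adjusted p = 0.0532) and with line as a block 0.26 (edgeR adjusted p = 0.0324). The call at 3 µM was lost with line as a block (0.33, edgeR adjusted p = 0.0567), with no filter on low counts and without 3 µM replicate 1 or DMSO replicate 3 or 4, with an adjusted p of up to 0.0747 in edgeR.

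Hdac2 went down while Hdac1 went up. It read 131, 120, 119 and 132 CPM with DMSO and 121, 120, 118 and 127 at 3 µM, ranges that overlapped. At 5 µM it read 79.3, 85.7, 77.8 and 90.5 CPM and at 10 µM 82.1, 76.8, 65.3 and 78.9, all below the DMSO libraries. The log2 fold changes were -0.05 ± 0.09 (edgeR adjusted p = 0.774), -0.59 ± 0.09 (edgeR adjusted p = 4.43e-05) and -0.73 ± 0.09 (edgeR adjusted p = 2.18e-06), and the step from 3 to 5 µM was -0.55 ± 0.09 (edgeR adjusted p = 0.000431). The ratio of Hdac1 to Hdac2 per kb was 1.14 ± 0.08 (SD, n = 4) with DMSO, 1.48 ± 0.13 at 3 µM, 2.57 ± 0.15 at 5 µM and 3.80 ± 0.24 at 10 µM, and the ranges of these 4 groups did not overlap. Their summed share with Hdac3 stayed between 77.4% and 79.1% of the family. Proliferation markers fell over the same doses, from a summed 1343 to 1403 CPM with DMSO to 281 to 372 at 10 µM, and their part in the change of Hdac2 was not tested.

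Hdac3 read 169, 171, 155 and 169 CPM with DMSO and 137, 140, 120 and 125 at 3 µM, with no overlap. At 5 and 10 µM it ran from 104 to 116 and from 100 to 121. The log2 fold changes were -0.35 ± 0.09 (edgeR adjusted p = 0.013), -0.60 ± 0.09 (edgeR adjusted p = 3.8e-05) and -0.58 ± 0.09 (edgeR adjusted p = 3.19e-05), and 5 and 10 µM differed by 0.02 ± 0.09 (edgeR adjusted p = 0.899).

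Hdac11 read 33.7, 36.5, 31.2 and 30.3 CPM with DMSO, 22.7, 19.4, 29.1 and 15.8 at 3 µM, 13.4, 21.7, 19.1 and 5.78 at 5 µM, and 12.5, 11.1, 9.94 and 4.43 at 10 µM. Line 4, the last in each list, was the lowest at every dose. The log2 fold changes were -0.60 ± 0.32 (edgeR adjusted p = 0.219), -1.13 ± 0.33 (edgeR adjusted p = 0.00801) and -1.78 ± 0.34 (edgeR adjusted p = 0.000155). Hdac5 read 52.8, 43.9, 49.8 and 50.1 CPM with DMSO, 38.5, 37.9, 51.5 and 16.3 at 3 µM, 29.7, 34.4, 35.4 and 31.6 at 5 µM, and 23.2, 19.8, 16.3 and 16.1 at 10 µM. At 5 and 10 µM all libraries lay below those with DMSO. The log2 fold changes were -0.45 ± 0.23 (edgeR adjusted p = 0.196), -0.58 ± 0.23 (edgeR adjusted p = 0.0437) and -1.38 ± 0.24 (edgeR adjusted p = 5.69e-05), and the call at 5 µM was lost without any 1 of its 8 libraries, with an adjusted p of up to 0.0997 in edgeR. Enteroendocrine markers summed to 326 to 497 CPM with DMSO and 2.29 to 4.04 at 10 µM, with Tph1 at 0 in the latter, and their part in these changes was not tested.

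The other 4 genes, Hdac4, Hdac6, Hdac8 and Hdac10, were called at no dose, with log2 fold changes between -0.40 and 0.26. Hdac4, higher in 5 deletion comparisons, read 37.7, 33.5, 43.4 and 33.3 CPM with DMSO and 29.7, 32.5, 34.5 and 30.4 at 10 µM (-0.22 ± 0.15, edgeR adjusted p = 0.231). Set beside the deletion values, A-485 at 10 µM gave negative values for Hdac11 and Hdac5, as deletion did, and for Hdac3, called lower in 2 deletion comparisons. It gave a positive value for Hdac7, called higher in the first organoid set. It gave Hdac1 and Hdac2 values of opposite sign where deletion gave none that was called, and Hdac4 a value that was not called where deletion gave positive ones. No test compared the 2 treatments.

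**Figure D5:**
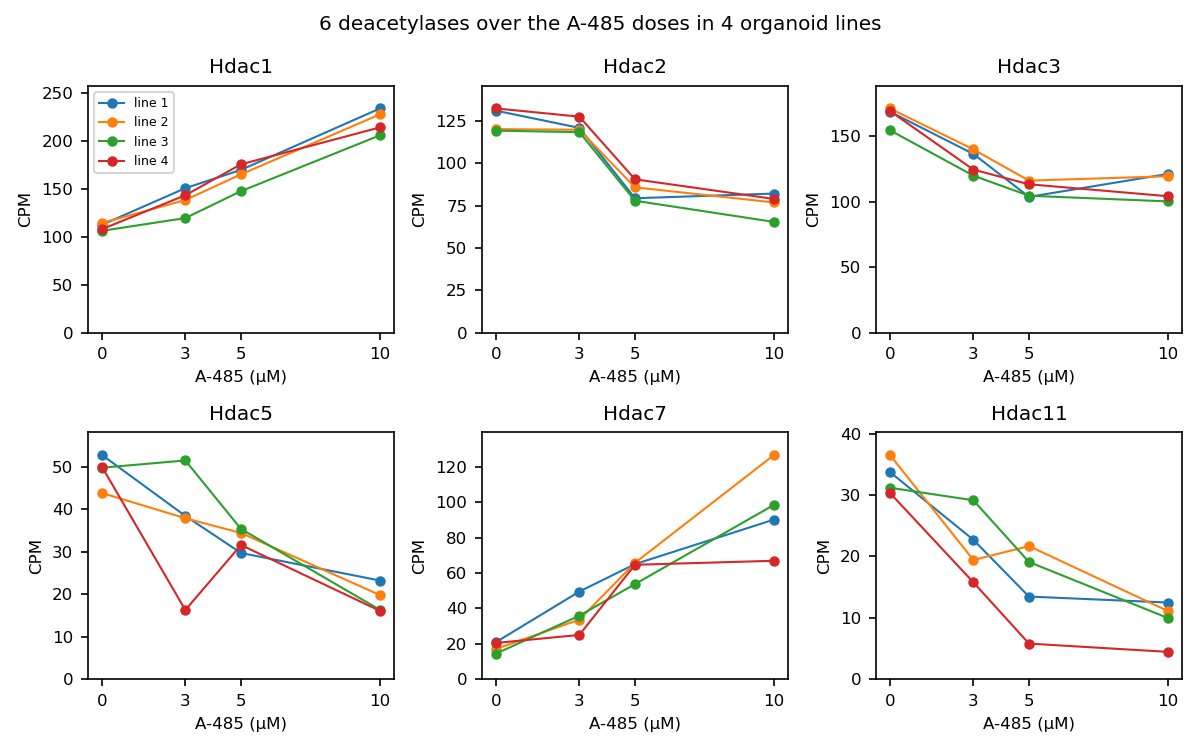
CPM of 6 deacetylases against the A-485 dose in µM, 1 coloured line per organoid line (4 lines). Hdac1 and Hdac7 climb at each dose in every line, Hdac2 drops between 3 and 5 µM, and Hdac11 ends at 4.43 to 12.5 CPM from 30.3 to 36.5.

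Fetal spheroids and second-set adult organoids, compared within 1 table and both with 4-OHT, differed in 4 of the 10 genes when flox/+ (3 higher and 1 lower in spheroids, against 22.9% and 15% of 15956 genes) and in 2 when flox/flox (1 higher and 1 lower, against 18.3% and 12.5%). Hdac11 was lower in spheroids in both, by 1.03 on the log2 scale (SE 0.28, edgeR adjusted p = 0.00371) and by 1.19 (SE 0.27, edgeR adjusted p = 0.000989). Hdac7 was higher in both, by 0.96 ± 0.37 (edgeR adjusted p = 0.04, lost without any 1 of the organoid libraries or without spheroid replicate 1 or 4, adjusted p up to 0.119) and 1.35 ± 0.36 (edgeR adjusted p = 0.00544). Hdac1 and Hdac8 were higher in flox/+ spheroids by 0.53 ± 0.13 (edgeR adjusted p = 0.0018) and 0.77 ± 0.21 (edgeR adjusted p = 0.00397). The other 6 genes lay between -0.46 and 0.04 when flox/+, and the other 8 between -0.48 and 0.27 when flox/flox. Age of origin and line cannot be told apart here, as each kind of culture came from its own lines.

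Of 42 other subunits of the Sin3, NuRD, CoREST, NCoR and SMRT, and MiDAC complexes, 3 were higher and 2 lower in homozygous Rosa26-CreER crypts, led by Phf21a (0.65), a CoREST subunit, and Rbbp4 (-0.38), a histone chaperone of NuRD, where 8.63% and 11.6% of all genes were. In second-set flox/flox organoids against flox/+ 15 were higher and 6 lower of 41 tested (22.6% and 24.3% of all genes), with a median log2 fold change of 0.09 beside -0.01 over all genes. Rcor3, a CoREST scaffold, had the largest rise there (0.78) and Gps2, an NCoR and SMRT subunit, the largest fall (-0.55). Among Sin3 subunits alone, Ing1, which reads histone methylation, was the highest in the crypts (0.47) and in flox/flox spheroids after 4-OHT (0.65). At 10 µM A-485, 16 of the 42 were higher and 7 lower (29.4% and 32.6% of all genes), with a median of 0.19 beside -0.05. Rcor2, a CoREST subunit, had the largest fall (-4.42) and Chd3, a NuRD remodeler, the largest rise (1.69). In Rosa26-CreER flox/+ mice 19 were higher and 12 lower in crypts (38.6% and 32.9% of all genes), with Rcor2 the highest (4.63) and Hmg20b, of CoREST, the lowest (-1.57).

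Of 12 genes for MEF2 factors and for kinases that act on class IIa deacetylases, 9 were tested in organoids. In the first set 6 were higher and 0 lower after 4-OHT (18.2% and 17.2% of all genes), with Camk2d, a calcium and calmodulin dependent kinase, the highest at 0.70. At 10 µM A-485 8 were higher and 1 lower, beside 29.4% and 32.6% of all genes: Mef2a had the largest rise (1.49), and Sik1, a salt-inducible kinase, the fall (-3.59). Sik1 was lower in second-set flox/flox organoids against flox/+ too (-0.61), where 4 were higher and 1 lower (22.6% and 24.3% of all genes). Of the 7 sirtuins, the NAD-dependent deacetylases, 2 were higher and 1 lower at 10 µM (Sirt2, 0.58, and Sirt3, -1.01). In Rosa26-CreER crypts, where 8.63% of all genes were called higher, the only sirtuin called was Sirt3 (0.54).

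Across the 21 group means of log2 CPM, each gene had a nearest neighbour among 9891 other genes, given as a description over groups that share sets and controls. Hdac2 was most like Nudcd1 (Pearson r = 0.992), Hdac1 like Dynlt3 (0.976), Hdac6 like Reps1 (0.969) and Hdac7 like Dmwd (0.954). Hdac3 was most like Adh5 (0.928), Hdac8 like Smug1 (0.919), Hdac4 like Cdk13 (0.917), Hdac11 like Sh3rf2 (0.912), Hdac10 like Dffa (0.909) and Hdac5 like Thra (0.906). Within the family the closest pair was Hdac2 and Hdac6 (0.89), and the most opposed was Hdac1 and Hdac4 (-0.611). Hdac5 was negatively related to Hdac1 (-0.59) and Hdac7 (-0.57).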

How the data were processed

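RNA was measured by directional poly(A) sequencing. The submitters' processing notes name HISAT2 2.0.5 and GRCm38 (mm10), while the counting program, annotation and strand setting are not given in the sources used here. The deposited values are raw read counts per gene in 4 tables, per the file headers, with no normalization by the authors. For each fit, low genes were removed with filterByExpr and counts were scaled by TMM over the libraries in that fit. Each comparison was fitted with edgeR 4.0.16 (R 4.3.3, robust quasi-likelihood F-test), with Benjamini-Hochberg adjustment over all genes tested. A call is an adjusted p under 0.05, and the SE is the log2 fold change divided by the square root of F. Levels are CPM after TMM, and are compared between tables only as a description.

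The 10 genes and the lists were chosen with earlier results of these data known, and all 10 were tested in each comparison. In context lists the called genes with the largest rise and fall are named. Alternatives were DESeq2 1.42.0, its size factors, no filter on low counts, other libraries in the fit, mitochondrial genes left out, presence of Y-linked transcripts, a replicate block and each library left out. The labels give the same line or animal in both groups for first-set organoids, spheroid treatments, A-485 and crypt against villus. These libraries are paired, and the correlation of paired deviations ran from -0.00247 to 0.857. The main fits left this pairing out, and a block for line or animal was used only among the alternatives. In other comparisons libraries share only a number, except in spheroids. Some flox/flox and flox/+ spheroid lines, and some lines within a genotype, share the first part of their names. Whether such lines have a common origin is not stated, and each line was treated as separate. No libraries were duplicates. The labels do not say that all libraries of a group came from separate cultures, so p-values measure the spread between these libraries. The edgeR fit was tested on simulated data. Library totals were 8652040 to 37611126 counts, and the lowest member count was 25.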

Additional observations from a re-analysis of the deposited data

Results flagged for a closer look

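In 14 of 180 pairs of gene and group with 4 to 10 libraries, 1 library stood farther from the others than a Dixon test at the 95% level allows, where chance gives about 1 in 20. Hdac1 read 73.6 CPM in replicate 3 of the homozygous Rosa26-CreER crypts, against 62.7 to 64.2 in the others. Hdac3 read 155 CPM in replicate 3 of the DMSO controls of the A-485 series, against 169 to 171 in the others. Hdac3 read 57.5 CPM in replicate 2 of the heterozygous Vil1-CreER crypts, against 70.5 to 73.1 in the others. Hdac3 read 85.8 CPM in replicate 4 of the flox/flox spheroids with DMSO, against 132 to 153 in the others. Hdac8 read 8.59 CPM in replicate 1 of the CreER-only organoids, against 8.08 to 8.15 in the others. Hdac5 read 29.8 CPM in replicate 4 of the homozygous Rosa26-CreER crypts, against 21.8 to 23.0 in the others. Hdac5 read 71.7 CPM in replicate 5 of the flox/+ spheroids with 4-OHT, against 40.2 to 45.0 in the others. Hdac7 read 53.7 CPM in replicate 3 of the organoids at 5 µM A-485, against 64.7 to 65.8 in the others. Hdac7 read 15.6 CPM in replicate 1 of the second-set flox/+ organoids, against 21.3 to 22.4 in the others. Hdac7 read 100.2 CPM in replicate 6 of the flox/flox spheroids with 4-OHT, against 28.6 to 54.6 in the others. Hdac6 read 5.45 CPM in replicate 2 of the homozygous Rosa26-CreER villi, against 3.82 to 4.23 in the others. Hdac11 read 18.9 CPM in replicate 5 of the homozygous Rosa26-CreER crypts, against 8.07 to 8.65 in the others. Hdac11 read 10.5 CPM in replicate 3 of the heterozygous Rosa26-CreER villi, against 16.5 to 17.9 in the others. Hdac11 read 35.8 CPM in replicate 5 of the flox/+ spheroids with 4-OHT, against 11.8 to 16.0 in the others. Replicate 5 of the flox/+ spheroids with 4-OHT stood apart for both Hdac5 and Hdac11, and the Hdac11 comparison that rests on it is given above without it.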

How the results depend on the processing

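Of 67 called values, 53 were called under every alternative run, 66 of 980 alternative values missed the threshold, and 0 changed sign. Of 173 values not called, 55 of 2880 alternative values passed the threshold. Among these 2880, 169 values of 54 results had the other sign, none of them called and each from a value of at most 0.277 on the log2 scale. On simulated counts, edgeR called 1.52% of genes changed by 0.5 log2 units and 34.3% of those changed by 1 in Rosa26-CreER crypts, and 12.1% and 49.3% at 10 µM A-485. Only 66 or 67 genes were changed at each size. In the Rosa26-CreER crypt data 1367 genes were called higher and 1831 lower. The adjusted threshold is stricter when fewer genes change, so these rates do not give the recovery in the data. Scaling by library totals kept 128 of 210 group levels within 1 SD.

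The count of deacetylases called changed with a replicate block from 0 to 1 for the Rosa26-CreER villus to crypt difference in effect, from 5 to 3 in second-set flox/flox against flox/+, from 2 to 5 in flox/flox spheroids, from 1 to 0 for spheroid genotypes under 4-OHT and from 0 to 4 for the spheroid difference in 4-OHT effect. Where numbers only name libraries (mouse genotypes, second-set organoids, spheroid genotypes, fetal against adult), the block tests no pairing. Hdac11 for spheroid genotypes under 4-OHT also missed the threshold with only the groups compared in the fit, a count of 0. With DESeq2 the count was 1 for the Vil1-CreER villus to crypt difference in effect and 4 for 5 against 3 µM. With Y-linked transcripts as a covariate it rose in Rosa26-CreER crypts, a fit in which genotype rests on 1 homozygous library. The cause of these changes was not tested. Shares of all genes called under these alternatives are not given here, so the counts cannot be set beside them. Leaving out 1 library at a time, the counts ran from 1 to 2 in Rosa26-CreER crypts, 0 to 1 in the Rosa26-CreER villus to crypt difference in effect, 0 to 1 in the Vil1-CreER villus to crypt difference in effect, 0 to 1 in spheroid genotypes under 4-OHT, 2 to 4 in flox/flox fetal against adult, 2 to 4 in 5 against 3 µM and 1 to 3 in 10 against 5 µM.

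Values of the other sign, none of them called, were as follows. With a replicate block the values of the other sign were Hdac10 -0.0206 in Vil1-CreER crypts, Hdac4 0.0368 in Vil1-CreER crypt against villus, Hdac1 -0.00545 in the Rosa26-CreER villus to crypt difference in effect, Hdac1 0.0442 in spheroid genotypes under DMSO, Hdac5 -0.18 in flox/+ fetal against adult, Hdac2 -0.0145 and Hdac8 -0.0806 in flox/flox fetal against adult and Hdac8 -0.0442 and Hdac6 0.0134 in 5 µM A-485. With DESeq2 size factors in edgeR the values of the other sign were Hdac1 0.00492 in Rosa26-CreER villi, Hdac4 0.0163 in Vil1-CreER crypt against villus, Hdac2 -0.0221 in flox/flox spheroids, Hdac3 -0.0172 and Hdac5 -0.0135 in flox/+ fetal against adult, Hdac2 -0.0156 and Hdac8 -0.0122 in flox/flox fetal against adult and Hdac8 -0.00513 in 5 µM A-485. With the DESeq2 test the values of the other sign were Hdac1 0.00522 in Rosa26-CreER villi, Hdac4 0.0168 in Vil1-CreER crypt against villus, Hdac2 -0.0217 in flox/flox spheroids, Hdac3 -0.0171 and Hdac5 -0.0132 in flox/+ fetal against adult, Hdac2 -0.0151 and Hdac8 -0.00787 in flox/flox fetal against adult and Hdac8 -0.00523 in 5 µM A-485. With no filter on low counts the values of the other sign were Hdac10 0.00927 in Rosa26-CreER crypts, Hdac1 0.0184 in Rosa26-CreER villi, Hdac4 0.0543 in Vil1-CreER crypt against villus and Hdac2 0.00359 in first-set organoids. With mitochondrial genes left out the values of the other sign were Hdac1 0.00349 in Rosa26-CreER villi, Hdac4 0.0135 in Vil1-CreER crypt against villus, Hdac1 -0.04 in the Rosa26-CreER villus to crypt difference in effect and Hdac6 0.00497 in 5 µM A-485. With Y-linked transcripts as a covariate the values of the other sign were Hdac1 0.0717, Hdac2 -0.0735 and Hdac6 0.0376 in Rosa26-CreER villi. With only the groups compared in the fit the values of the other sign were Hdac4 0.0326 in Vil1-CreER crypt against villus, Hdac3 -0.00517 and Hdac5 -0.00489 in flox/+ fetal against adult and Hdac6 0.016 in 5 µM A-485. Leaving out 1 library at a time moved some values across 0, and the lowest and highest log2 fold changes are given for those genes. In Rosa26-CreER crypts it gave Hdac10 -0.13 to 0.0881. In Rosa26-CreER villi it gave Hdac1 -0.0361 to 0.052, Hdac7 -0.48 to 0.13 and Hdac6 -0.15 to 0.024. In Vil1-CreER crypts it gave Hdac8 -0.00556 to 0.11 and Hdac10 -0.13 to 0.18. In Vil1-CreER villi it gave Hdac4 -0.0146 to 0.14. In Vil1-CreER crypt against villus it gave Hdac4 -0.057 to 0.0968. In the Rosa26-CreER villus to crypt difference in effect it gave Hdac1 -0.0538 to 0.0779 and Hdac11 -0.17 to 0.50. In the Vil1-CreER villus to crypt difference in effect it gave Hdac4 -0.23 to 0.00525. In first-set organoids it gave Hdac2 -0.0734 to 0.028, Hdac8 -0.0379 to 0.15 and Hdac10 -0.0471 to 0.13. In second-set flox/flox against flox/+ it gave Hdac7 -0.13 to 0.0538. In second-set flox/flox against CreER-only it gave Hdac1 -0.0489 to 0.000463, Hdac5 -0.0629 to 0.0332 and Hdac10 -0.074 to 0.0406. In second-set flox/+ against CreER-only it gave Hdac8 -0.0243 to 0.0454, Hdac4 -0.0292 to 0.0693, Hdac7 -0.14 to 0.00965, Hdac6 -0.0525 to 0.0332 and Hdac11 -0.029 to 0.0629. In flox/flox spheroids it gave Hdac2 -0.0722 to 0.083. In flox/+ spheroids it gave Hdac1 -0.11 to 0.0277, Hdac2 -0.0867 to 0.0081, Hdac3 -0.12 to 0.0415, Hdac8 -0.13 to 0.0925, Hdac4 -0.044 to 0.26, Hdac5 -0.06 to 0.19 and Hdac6 -0.25 to 0.0474. In spheroid genotypes under 4-OHT it gave Hdac3 -0.12 to 0.0491 and Hdac6 -0.00573 to 0.30. In spheroid genotypes under DMSO it gave Hdac1 -0.0787 to 0.043, Hdac2 -0.00445 to 0.14, Hdac5 -0.17 to 0.0167 and Hdac10 -0.0127 to 0.27. In the spheroid difference in 4-OHT effect it gave Hdac2 -0.0251 to 0.13. In flox/+ fetal against adult it gave Hdac3 -0.0162 to 0.11 and Hdac5 -0.14 to 0.10. In flox/flox fetal against adult it gave Hdac2 -0.0426 to 0.0821 and Hdac8 -0.0726 to 0.16. In 3 µM A-485 it gave Hdac8 -0.34 to 0.0914 and Hdac4 -0.23 to 0.0229. In 5 µM A-485 it gave Hdac8 -0.21 to 0.22, Hdac4 -0.13 to 0.0501 and Hdac6 -0.0723 to 0.052. In 5 against 3 µM it gave Hdac8 -0.0734 to 0.39, Hdac4 -0.0573 to 0.19 and Hdac5 -0.38 to 0.0825. In 10 against 5 µM it gave Hdac3 -0.0178 to 0.0741, Hdac8 -0.0901 to 0.34 and Hdac10 -0.17 to 0.14.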
